A study of Mus musculus with 6 samples.

Results

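Aminoacyl-tRNA synthetases load each amino acid onto its own tRNA, and 39 genes of this machinery were followed in mouse bone marrow-derived macrophages kept under osteoclast-forming conditions with Visomitin or without it. The genes are defined by symbol, and the choice was made with earlier results of these data known. All 39 were found among the 57180 gene identifiers of the expression table. The cytosolic set has 23 genes, of which 20 encode enzymes or enzyme subunits and 3 (Aimp1, Aimp2 and Eef1e1) encode scaffold proteins. The mitochondrial set has 16 genes, whose symbols end in 2. The 2 groups were Visomitin-treated cells (libraries Visomitin 1 to 3) and control cells (libraries control 1 to 3). All came from WT mouse bone marrow and were cultured for 5 days under osteoclast-forming conditions, the control cells included. The sources used here do not state the dose of Visomitin, the age of the mice, or whether each library represents its own mouse or culture. Since the spread among libraries may be technical, p-values are limited to that spread. Expression was given as TPM, a length-corrected share of each library that keeps no read counts, so the sequencing depth is unknown.

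Most of the cytosolic enzymes work on their own, while 8 of the enzyme genes measured here (Dars, Eprs, Iars, Kars, Lars, Mars1, Qars and Rars) and the 3 scaffold genes make up the multisynthetase complex, a large assembly found in animal cells. A separate set of nuclear genes encodes the enzymes that are imported into mitochondria and charge the tRNAs used to make respiratory chain subunits. Gars and Kars each supply both compartments from a single gene. There is no mitochondrial partner of Qars, because mitochondria make glutaminyl-tRNA by charging with glutamate through Ears2 and then amidating it. Many cytosolic synthetase genes are known targets of ATF4, a transcription factor whose translation increases when amino acids run short or when mitochondria are stressed. Visomitin, or SkQ1, is an antioxidant carried into mitochondria by its cationic part, and osteoclasts are rich in mitochondria.

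ATF4 binds DNA with a C/EBP partner at a composite site, the C/EBP-ATF response element (CARE). The letters TGATGNAA, the core of that site, were searched on both strands of RefSeq promoter windows (GRCm38.p6, 250 bases before to 50 bases after the start of the gene). On the other strand the core reads TTNCATCA. It occurred in 3.97% of all 32851 windows. Promoter windows were matched for 30 of the 39 genes, and the core was present in 5 of the 16 cytosolic genes with a window (31.2%) and in 0 of the 14 mitochondrial ones. Among 14 ATF4 response genes outside the synthetases, 6 of 14 (42.9%) held it. The stretches shown run 5′ to 3′ from position -120 to position 26 relative to the gene start, with the core in capitals. They are shown because the 5 synthetase genes carry the same core, with any letter at N, as Asns and Trib3, which rose. The other response genes with the core were Chac1 and Nupr1, which rose, and Slc7a11 and Vldlr, which did not pass. Ddit3, Atf5 and Sesn2 rose without the core in their windows.
Aars (chr8:111033722-111033867, plus strand): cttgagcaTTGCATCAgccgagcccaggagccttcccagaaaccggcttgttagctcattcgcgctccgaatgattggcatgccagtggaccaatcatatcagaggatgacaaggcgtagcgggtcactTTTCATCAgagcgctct
Gars (chr6:55037881-55038026, plus strand): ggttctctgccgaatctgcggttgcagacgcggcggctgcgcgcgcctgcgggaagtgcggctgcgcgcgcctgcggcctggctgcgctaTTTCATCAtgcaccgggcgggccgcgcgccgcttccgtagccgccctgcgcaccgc
Iars (chr13:49682010-49682155, plus strand): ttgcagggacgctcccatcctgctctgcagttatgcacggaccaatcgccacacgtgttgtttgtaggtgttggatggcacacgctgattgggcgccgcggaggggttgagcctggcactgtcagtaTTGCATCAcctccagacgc
Tars (chr15:11399633-11399778, minus strand): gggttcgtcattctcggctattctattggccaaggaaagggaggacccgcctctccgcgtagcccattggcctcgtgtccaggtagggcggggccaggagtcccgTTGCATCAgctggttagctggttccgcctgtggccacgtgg
Yars (chr4:129189783-129189928, plus strand): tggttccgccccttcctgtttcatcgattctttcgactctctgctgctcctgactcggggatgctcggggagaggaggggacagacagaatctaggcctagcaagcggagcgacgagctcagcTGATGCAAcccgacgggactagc
Asns (chr6:7693184-7693329, minus strand): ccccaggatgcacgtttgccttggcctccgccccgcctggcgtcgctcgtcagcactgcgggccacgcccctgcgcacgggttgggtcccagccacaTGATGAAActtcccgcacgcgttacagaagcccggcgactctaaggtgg
Trib3 (chr2:152344035-152344180, minus strand): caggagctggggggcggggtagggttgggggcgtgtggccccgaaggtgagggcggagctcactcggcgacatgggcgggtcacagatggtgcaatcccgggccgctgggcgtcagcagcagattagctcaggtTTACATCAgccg
Aars held the core at 2 places, and the other genes once each. The promoter of Aimp2, the member that passed the test, is shown for contrast and holds no core.
Aimp2 (chr5:143909814-143909959, minus strand): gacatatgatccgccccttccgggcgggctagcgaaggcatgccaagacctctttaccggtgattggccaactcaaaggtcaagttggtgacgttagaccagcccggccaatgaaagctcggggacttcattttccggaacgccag
A match describes letters and is not evidence of binding. The E-box CACGTG, a palindrome bound by Myc and related factors, was in 4 of the 16 cytosolic windows (Aars, Farsb, Iars and Tars) and 1 of the 14 mitochondrial windows (Ears2), against 7.15% of all windows. There was no promoter entry for Cars, Hars, Hars2, Lars, Nars, Pars2, Rars, Vars and Wars.

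The labels describe the cells as macrophages, and most of their macrophage markers were abundant in both groups. Fcgr1 was low, at 4.93 to 8.87 TPM. The summed level of 6 macrophage markers was 3911 to 5133 TPM in Visomitin libraries and 4323 to 4582 TPM in control libraries, and none of the 6 passed the test. All 8 osteoclast markers fell, and their summed level was 2914 to 3499 TPM in Visomitin libraries against 11017 to 11969 TPM in control libraries. Stromal markers summed to 68.8 to 152 TPM with Visomitin and to 102 to 290 TPM in controls, with control 3 the highest. Of the neutrophil markers, Ly6g, S100a9, Mpo and Elane were at 0 in every library and S100a8 lay between 8.82 and 19.5 TPM. The erythroid markers Hba-a1 and Hbb-bs and the lymphocyte markers Cd3e and Cd79a were at 0 in every library. The part of the osteoclast and stromal markers in the results that follow was not tested. In bulk RNA, fewer cells of a type and less RNA per cell cannot be told apart. In a principal component analysis of the libraries, the groups lay apart on component 1 (44.1% of the variance). On component 2 (19.6%), Visomitin 1 scored 25.1, against -17.2 for Visomitin 2 and -16.8 for Visomitin 3.

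All 39 genes were detected in every library. The cytosolic set had a median mean level of 52.0 TPM (8.89 to 262 TPM), and the mitochondrial set one of 10.8 TPM (1.17 to 113 TPM). Qars, the glutaminyl-tRNA synthetase, was the most abundant member. It had 242.56, 304.94 and 263.98 TPM in Visomitin libraries and 273.96, 250.46 and 233.77 TPM in control libraries. The groups overlapped for Qars, as they did for Nars, the asparaginyl enzyme, which had 171.74, 171.92 and 176.84 TPM with Visomitin and 165.44, 170.99 and 173.85 TPM in controls. Sars, the seryl enzyme, was second, with 198.52, 197.39 and 225.41 TPM in Visomitin libraries and 181.17, 182.79 and 183.19 TPM in control libraries. All Visomitin values of Sars lay above all control values, a log2 difference of 0.18 ± 0.08 (SE) that did not pass limma's test (adjusted p = 0.216). Lars2, the mitochondrial leucyl enzyme, stood far above the rest of its set. It had 127.53, 98.09 and 103.31 TPM with Visomitin and 130.24, 90.83 and 126.53 TPM in controls, against a mean of 35.1 TPM for Tars2, the next mitochondrial gene. The least abundant member was Mars2, the mitochondrial methionyl enzyme, with 0.89, 0.94 and 0.97 TPM in Visomitin libraries and 1.28, 1.45 and 1.49 TPM in control libraries. All 3 Visomitin values of Mars2 were below the 1 TPM asked of a tested gene, so it entered the test only through the control libraries.

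**Figure D1:**
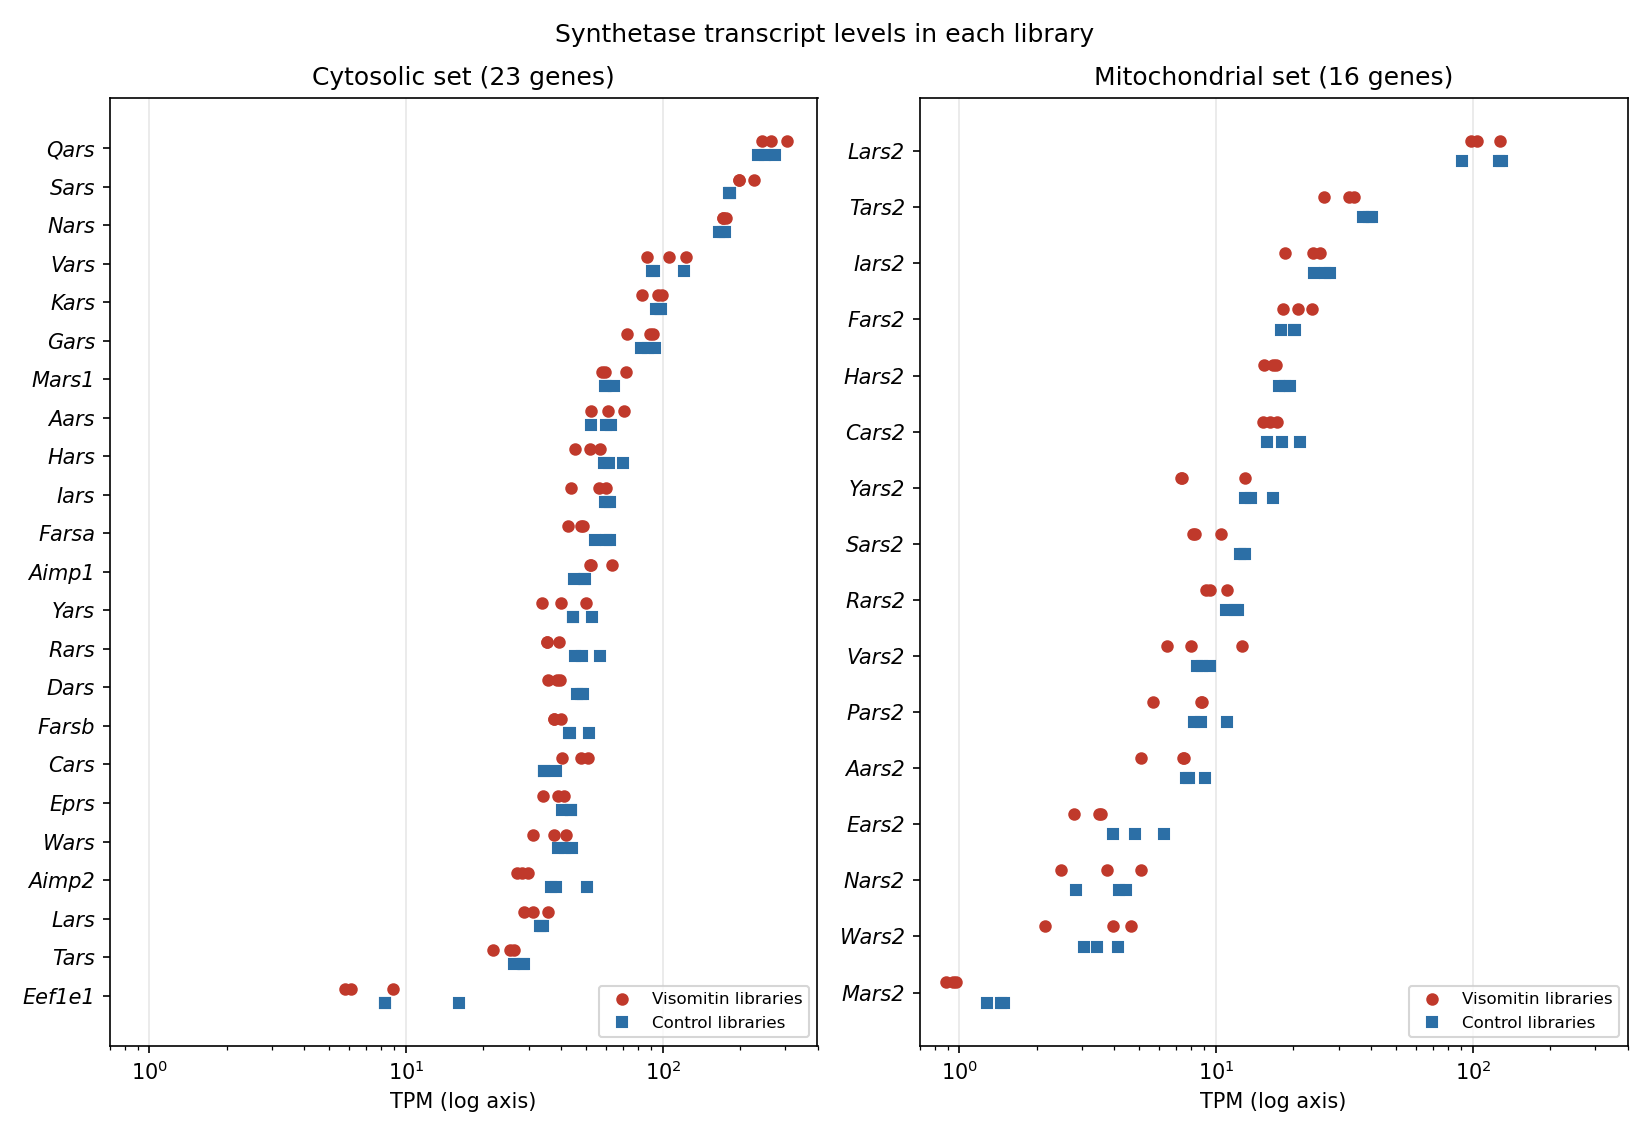
Levels in TPM on a log axis, with the cytosolic and the mitochondrial set in a panel each, 1 row per gene in order of mean level, and a point per library (red circles, Visomitin; blue squares, control). Qars (mean 262 TPM) tops the cytosolic set, Lars2 (mean 113 TPM) lies well above the other mitochondrial genes, and Mars2 (mean 1.17 TPM) is the lowest of all.

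Differences in synthetase expression were small. Of the 39 genes, 0 rose, 1 fell (Aimp2) and 38 did not pass limma's test on log2(TPM + 1) at an adjusted p of 0.05 over all 11753 tested genes. Across all tested genes 7.10% passed (2.08% higher and 5.03% lower), so the members' 1 of 39 is no larger a share than the background. At an unadjusted p under 0.05, 1 member was higher and 10 were lower, where 9.12% of all tested genes were higher and 15.2% lower. Differences leaned downward, with 30 of 39 members (76.9%) below 0, against 55.7% of all tested genes. The median log2 difference of the members was -0.18, against -0.03 for all tested genes. The groups' ranges did not overlap for 15 members, 38.5% of the 39, against 30.4% of all tested genes. Of these, 3 were higher (7.69%, against 11.9%) and 12 lower (30.8%, against 18.4%). Without Mars2, which entered only through the control libraries, 14 of 38 did not overlap (36.8%), 11 of them lower (28.9%), and 29 of 38 (76.3%) were below 0. No member reached a 2-fold difference, and the fitted log2 differences ran from -0.63 (Yars2) to 0.36 (Cars).

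**Figure D2:**
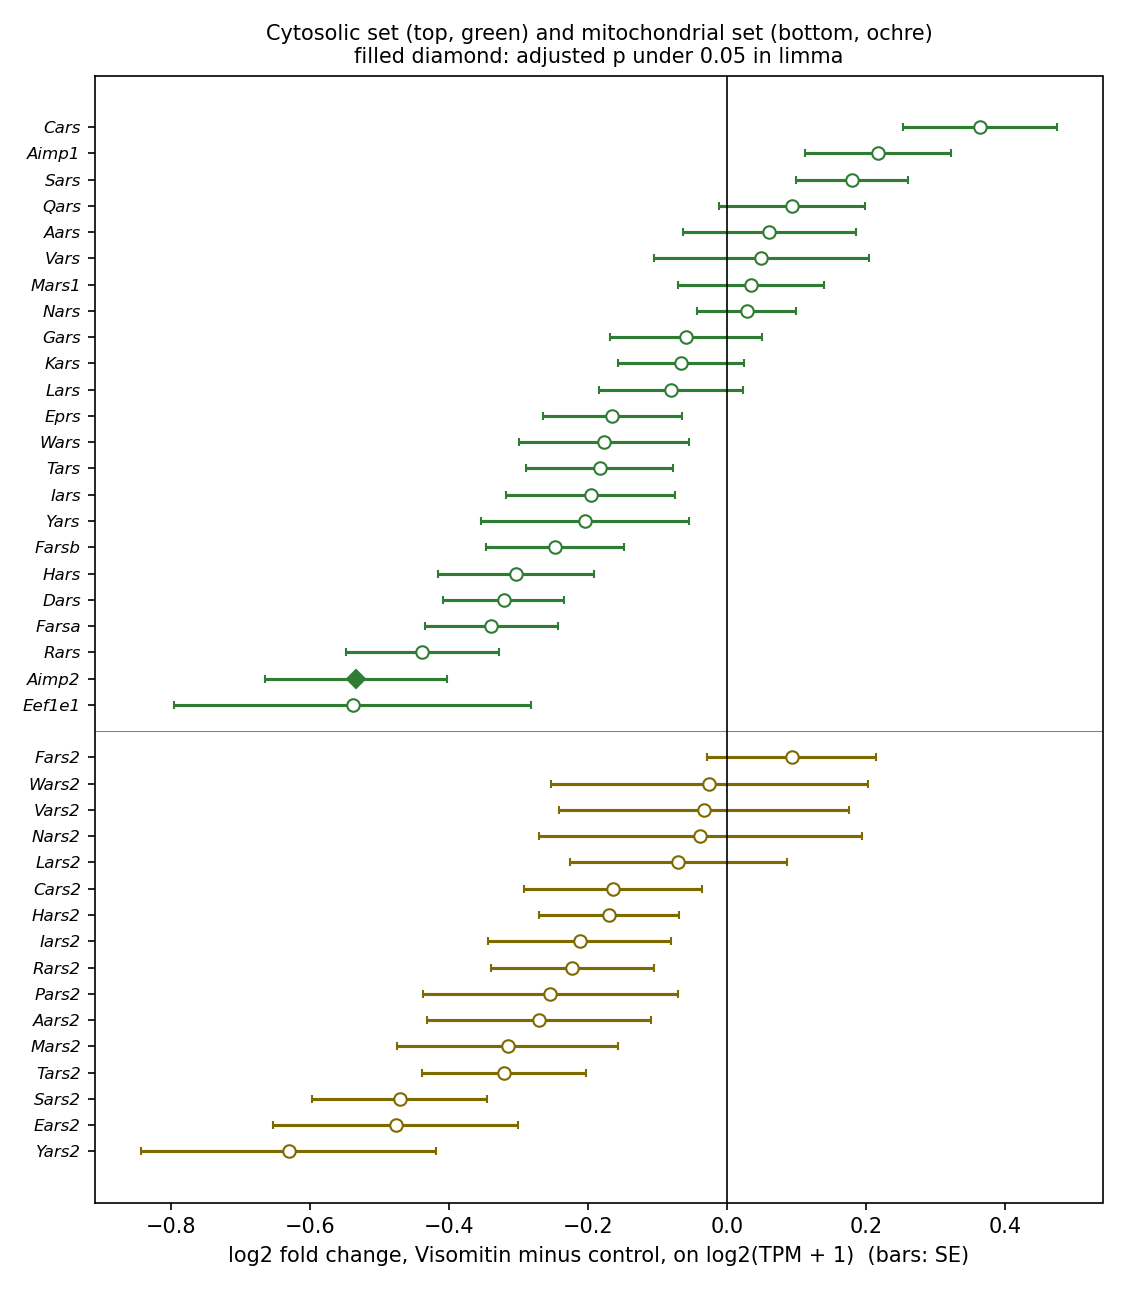
Log2 difference (Visomitin minus control, on log2(TPM + 1)) of each of the 39 genes with its standard error, 3 libraries a group, arranged by set (green, cytosolic; ochre, mitochondrial). Aimp2, the filled diamond, is the 1 gene past the threshold, 15 of the 16 mitochondrial genes lie left of 0, and Cars lies farthest right at 0.36.

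Of the 3 scaffold genes of the multisynthetase complex, 1 fell (5.03% of all tested genes fell) and the other 2 did not pass. Aimp2, whose protein holds the complex together, fell 1.45-fold. It had 28.19, 26.91 and 29.95 TPM in Visomitin libraries (28.4 ± 1.53, SD, n = 3) and 36.71, 38.37 and 50.56 TPM in control libraries (41.9 ± 7.56, n = 3). Every Visomitin value was below every control value, control 3 was the highest, and the log2 difference was -0.53 ± 0.13 (SE, limma adjusted p = 0.047). The call sits at the threshold. Aimp2 passed in 5 of 15 other settings, with adjusted p between 0.025 and 0.15, and was lost with either other scaling, with no filter, with no variance trend and whenever 1 library was left out. Its log2 difference stayed between -0.62 and -0.39 when each library was left out. In GENCODE M21 the gene lies at chr5:143902704-143909847 on the minus strand (GRCm38), and 487 of its 1654 exonic bases (29.4%) are shared with Eif2ak1 on the other strand. Eif2ak1 encodes the stress kinase HRI and had 28.41, 33.35 and 33.2 TPM with Visomitin and 30.61, 30.42 and 28.64 TPM in controls. The libraries were made with a stranded kit, but the sources used here do not say whether strand was used in quantification. In all, 15 members share exonic bases with another gene, 11 of them with a gene that reached 1 TPM. After Aimp2 the largest shares were those of Iars2 with Rab3gap2 (22.9%, other strand) and Aars with Exosc6 (14.3%, same strand). The log2 difference was -0.22 for Rab3gap2 and -0.21 for Iars2. It was -0.81 for Exosc6 and 0.06 for Aars. None of these genes passed, and the part of shared bases in the differences was not tested.

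Aimp1, a second scaffold gene whose protein binds tRNA, lay on the other side of 0. It had 63.57, 52.06 and 52.69 TPM in Visomitin libraries and 44.88, 49.09 and 49.89 TPM in control libraries, without overlap, a log2 difference of 0.22 ± 0.11 (SE) that did not pass limma's test (adjusted p = 0.250). Eef1e1, the smallest scaffold protein, had 8.9, 6.11 and 5.78 TPM with Visomitin and 8.26, 8.29 and 15.99 TPM in controls. Control 3 was far above the other control libraries for Eef1e1, and Visomitin 1 was above both of them. The log2 difference of Eef1e1 was -0.54 ± 0.26 (SE, limma adjusted p = 0.244), and it was -0.25 without control 3. Over the 11 genes of the complex the median was -0.16, with 1 lower and 10 not passing, where 5.03% of all tested genes fell. The 8 enzymes inside the complex and the 12 outside it had the same median of -0.12.

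Among the 20 cytosolic enzyme genes, none passed. The 3 lowest p-values belonged to lower genes inside and outside the complex. Rars, the arginyl enzyme held in the complex by Aimp1, had 35.21, 35.36 and 39.55 TPM in Visomitin libraries and 48.27, 45.39 and 57.07 TPM in control libraries. The groups of Rars did not overlap, and its log2 difference of -0.44 ± 0.11 (SE) narrowly missed the threshold in limma (adjusted p = 0.051). Dars, the aspartyl enzyme, had 35.57, 39.85 and 38.52 TPM with Visomitin and 48.87, 47.79 and 46.28 TPM in controls (log2 difference -0.32, limma adjusted p = 0.065). Farsa, the catalytic subunit of the phenylalanyl enzyme, had 42.63, 47.99 and 48.68 TPM in Visomitin libraries and 60.03, 54.59 and 62.27 TPM in control libraries (log2 difference -0.34, limma adjusted p = 0.073). The groups did not overlap for Dars or Farsa. Rars, Dars and Farsa passed, all lower, with median-ratio scaling and with quantile normalization, under which Aimp2 did not. Rars also passed with a mean of at least 5 TPM, without mitochondrially encoded genes and with the number in the library name as a block. In all it passed in 5 of 15 other settings. Farsb, the other subunit of the same enzyme, was also lower without overlap (log2 difference -0.25, limma adjusted p = 0.174). Hars, the histidyl enzyme, differed by -0.30 with adjusted p = 0.144, again without overlap.

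Cars, the cysteinyl enzyme, had the largest positive difference. It had 40.32, 47.94 and 50.99 TPM in Visomitin libraries and 34.53, 34.33 and 38.31 TPM in control libraries. All Visomitin values were higher, by 0.36 ± 0.11 on the log2 scale (SE, limma adjusted p = 0.090). Cars passed with median-ratio scaling, with quantile normalization and without Visomitin 1. Cars and Sars were the 2 of the 20 cytosolic enzyme genes higher without overlap, no larger a share than the 11.9% of all tested genes. Another 5 of the 20 were lower without overlap, beside 18.4% of all tested genes. For the alanyl (Aars), glycyl (Gars), lysyl (Kars), leucyl (Lars), methionyl (Mars1), valyl (Vars), tryptophanyl (Wars), tyrosyl (Yars), isoleucyl (Iars), threonyl (Tars) and glutamyl-prolyl (Eprs) genes the groups overlapped, and log2 differences lay between -0.20 and 0.06.

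The mitochondrial set had 0 genes higher, 0 lower and 16 not passing the adjusted test. Over all tested genes 2.08% passed as higher and 5.03% as lower. At an unadjusted p under 0.05 in limma, 0 of the 16 were higher and 4 lower. At that threshold 9.12% of all tested genes were higher and 15.2% lower. The differences of the mitochondrial set pointed mostly one way. Fars2, the phenylalanyl enzyme, was the 1 gene above 0 (log2 difference 0.09, limma adjusted p = 0.684), and the other 15 (93.8%) were below 0, against 55.7% of all tested genes. The median was -0.22. Ranges did not overlap for 6 of the 16, all lower (37.5%, against 18.4% of tested genes). The filter favoured a lower value for Mars2, and without it 14 of 15 (93.3%) were below 0 and 5 of 15 (33.3%) were lower without overlap. Sars2, the seryl enzyme, had 8.13, 8.29 and 10.47 TPM with Visomitin and 12.4, 12.99 and 12.81 TPM in controls, without overlap (log2 difference -0.47 ± 0.13, SE, limma adjusted p = 0.061). Sars2 passed with median-ratio scaling, with quantile normalization and without Visomitin 3. Yars2, the tyrosyl enzyme, had 7.31, 7.35 and 12.99 TPM in Visomitin libraries and 12.91, 13.65 and 16.67 TPM in control libraries. Visomitin 3 reached the control range for Yars2, whose log2 difference was -0.63 ± 0.21 (SE, limma adjusted p = 0.114); without Visomitin 3 it was -0.88 and passed. Ears2, the glutamyl enzyme that also starts the glutamine route, had 2.8, 3.5 and 3.57 TPM with Visomitin and 4.83, 3.96 and 6.27 TPM in controls (log2 difference -0.48, limma adjusted p = 0.145). Tars2, the threonyl enzyme, had 26.26, 34.54 and 32.95 TPM with Visomitin and 37.29, 39.39 and 40.39 TPM in controls (log2 difference -0.32, limma adjusted p = 0.143). Both were lower without overlap, as were Aars2, Hars2 and Mars2. The summed level of the set was 274.91, 279.44 and 285.36 TPM in Visomitin libraries and 324.73, 294.74 and 329.41 TPM in control libraries, without overlap, with Lars2 the largest single contributor. The summed cytosolic level was 1500, 1657 and 1741 TPM in Visomitin libraries and 1656, 1609 and 1738 TPM in control libraries, which overlapped.

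The difference between the cytosolic and mitochondrial medians was small and was not tested. The cytosolic median was -0.16, with 15 of 23 genes (65.2%) below 0, and it differed from the mitochondrial median by 0.05. A difference of set medians taken library by library had a within-group SD of 0.07. It uses the values of single libraries and not the fitted differences, so this SD is not the spread of the 0.05. Without Visomitin 1 the cytosolic median was -0.06 and the mitochondrial one -0.18. Class I and class II enzymes, which differ in the fold of their catalytic site, had medians of -0.08 (9 genes) and -0.12 (10 genes) in the cytosol and of -0.21 (9 genes) and -0.25 (7 genes) in mitochondria.

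Visomitin 1 and control 3 stood at the edge of their groups for many members. Relative to the control mean of each gene, the median deviation of the cytosolic set was -0.27, -0.13 and 0.03 in Visomitin libraries 1, 2 and 3 and -0.01, -0.07 and 0.08 in the control libraries. That of the mitochondrial set was -0.44, -0.12 and -0.14 in Visomitin libraries and -0.05, 0.02 and 0.03 in control libraries. All tested genes had medians of -0.14, -0.01 and 0.03 in the Visomitin libraries. Visomitin 1 had the lowest median of all 6 libraries in both sets. It was the lowest Visomitin library for 17 of 23 cytosolic genes (73.9%) and 13 of 16 mitochondrial genes (81.2%), against 63.9% of all tested genes. Control 3 was the highest control library for 19 of 23 cytosolic genes (82.6%) and 6 of 16 mitochondrial genes (37.5%), against 36.8% of all tested genes.

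**Figure D3:**
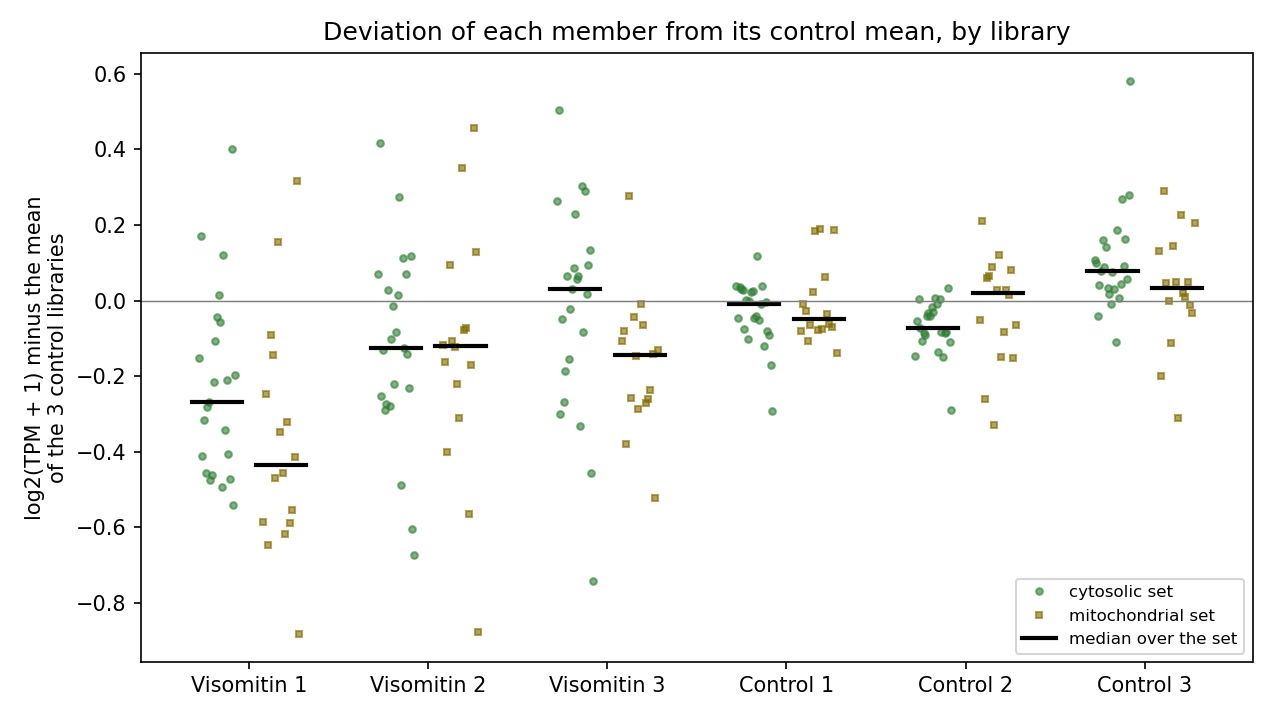
Deviation of each gene from its control mean on log2(TPM + 1), by library, with a point per gene (green circles, cytosolic set; ochre squares, mitochondrial set) and a black bar at each set's median. Visomitin 1 has the lowest median in both sets (-0.27 and -0.44), and Visomitin 3 has a cytosolic median near 0 (0.03).

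The balance between the compartments was read from 17 pairs of genes that serve the same amino acid, as the ratio of cytosolic to mitochondrial TPM in each library. The cytosolic gene was the more abundant in 15 pairs, up to 53.2-fold for Mars1 over Mars2. The exceptions were Lars over Lars2 (0.291) and Tars over Tars2 (0.744). Ratios did not overlap between the groups in 8 pairs, 6 higher and 2 lower with Visomitin. No such share was computed for ratios of other gene pairs; among single genes, 30.4% of those tested did not overlap. Serine had the largest shift. The ratio of Sars to Sars2 was 24.4, 23.8 and 21.5 in Visomitin libraries and 14.6, 14.1 and 14.3 in control libraries, a log2 shift of 0.70. Methionine (0.62), cysteine (0.55), tyrosine (0.48), glutamate (0.42) and alanine (0.37) lay on the same side. The methionine ratio rests on Mars2, which entered only through the control libraries, since Mars1 differed by 0.03. Phenylalanine lay on the other, at -0.44 for Farsa and -0.35 for Farsb over Fars2. Each of the 8 had an exact two-sided permutation p of 0.1, the smallest that 3 against 3 libraries allow, and an adjusted p of 0.212 over the 17 pairs, so none passed. The median shift over the pairs was 0.09.

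**Figure D4:**
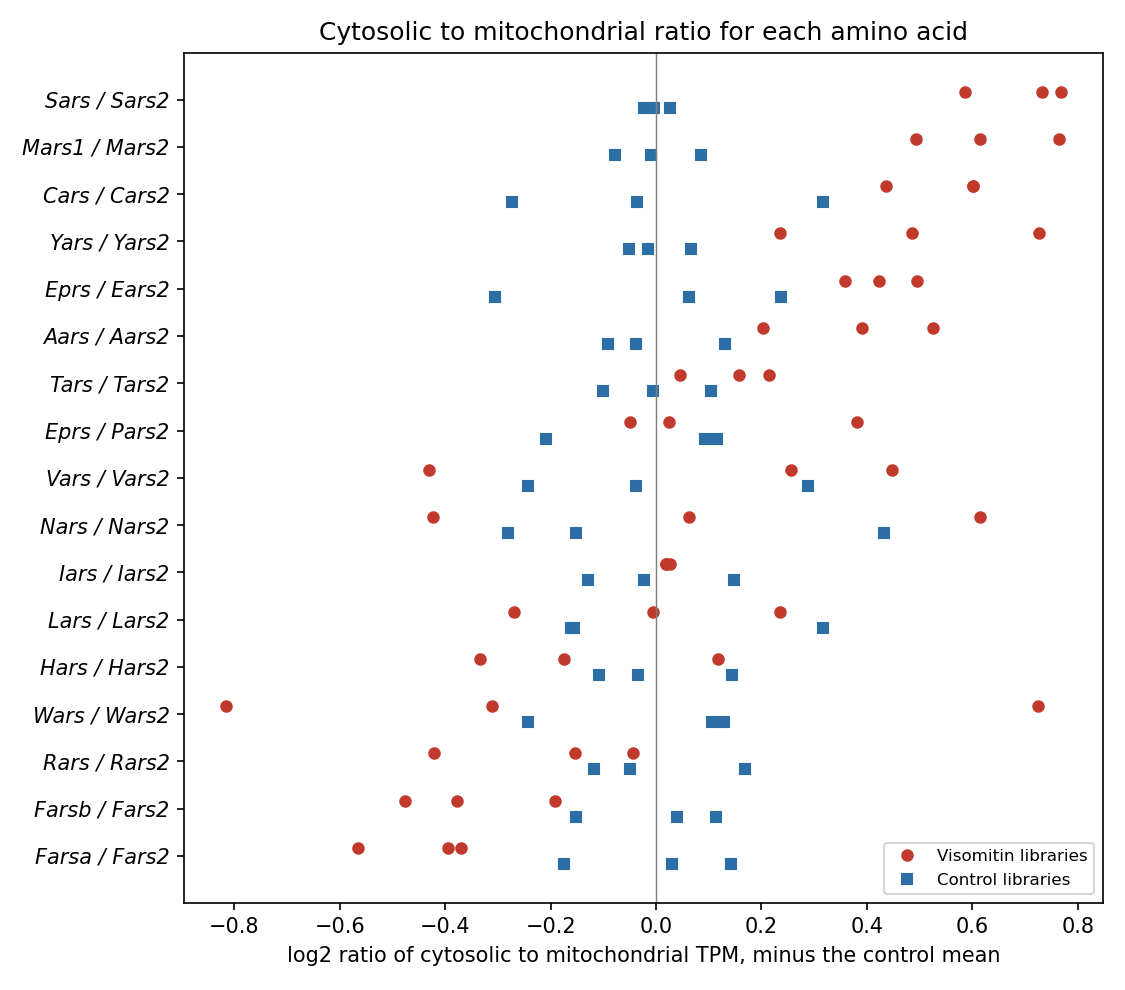
Log2 ratio of cytosolic to mitochondrial TPM for the 17 pairs, minus the control mean of that pair, with a point per library (red circles, Visomitin; blue squares, control) and pairs in order of shift. The seryl pair (shift 0.70) is at the top and the Farsa and Fars2 pair (-0.44) at the bottom, and the groups overlap in the 9 pairs between the topmost 6 and the lowest 2.

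Several genes of the ATF4 response outside the synthetases rose. Of 14 such response genes 7 rose (2.08% of all tested genes did), 0 fell and the other 7 missed the threshold. The median log2 difference of the 14 was 0.50, against -0.03 for all tested genes. This list and the list of cytosolic enzymes below were chosen with earlier results of these data known. Shares set beside all tested genes are therefore no test of either list. Trib3, a pseudokinase induced by stress, had 16.14, 21.48 and 23.72 TPM in Visomitin libraries and 2.73, 2.02 and 2.27 TPM in control libraries (log2 difference 2.67 ± 0.17, SE, limma adjusted p = 7.86e-05). Asns, the enzyme that makes asparagine, had 36.27, 41.31 and 47.28 TPM with Visomitin and 18.42, 18.53 and 22.73 TPM in controls (log2 difference 1.03 ± 0.13, SE, limma adjusted p = 0.0034). The groups were widely apart for both genes. Ddit3, Chac1, Atf5, Sesn2 and Nupr1 were the other 5 that rose. Trib3, Asns, Ddit3 and Atf5 passed in all 15 other settings, Chac1 in 13 of 14, Nupr1 in 9 of 15 and Sesn2 in 8 of 15. Between 5 and 8 of the 14 passed when each library was left out, with 8 without Visomitin 1 and 5 without control 3, and 4 passed with no filter on low values. The transcript of Atf4 itself was higher without overlap by 0.39 on the log2 scale, which did not pass (limma adjusted p = 0.070). Of the 13 cytosolic enzymes listed as ATF4 targets, 0 passed, 6 were above 0 and 7 below, and the median was -0.06 (0.04 without Visomitin 1). With median-ratio scaling or without Visomitin 1, 1 of the 13 passed (Cars), and with quantile normalization 2 did (Cars and Sars), all higher. Ranges did not overlap for 2 of these 13, both higher (Cars and Sars; 15.4%, against 11.9% of all tested genes). Of the 7 cytosolic enzymes not on that list, 0 passed and the median was -0.30. Of these 7, 5 were lower without overlap (71.4%, against 18.4% of all tested genes). These 2 groups of enzymes were not compared by a test.

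None of the synthetase genes with the CARE core passed. The 5 whose promoters are shown had log2 differences of 0.06 (Aars), -0.06 (Gars), -0.20 (Iars), -0.18 (Tars) and -0.20 (Yars). Aars, with 2 cores, had 52.36, 61.33 and 70.27 TPM in Visomitin libraries and 59.97, 52.6 and 62.87 TPM in control libraries, which overlapped. Set against these genes within each library, Asns was higher with Visomitin without overlap. The 5 ratios share Asns, which was already known to be higher, so they restate its rise and are not independent of one another. The ratio of Asns to Tars, for example, was 1.67, 1.63 and 1.8 in Visomitin libraries and 0.645, 0.707 and 0.793 in control libraries. The 5 log2 shifts lay between 1.00 and 1.27, and Asns was chosen for these ratios after its values were seen. Mars1 shares 68 of its 3423 exonic bases (1.99%) with Ddit3 on the other strand. Ddit3, the transcription factor CHOP, rose to 41.27, 39.67 and 47.52 TPM in Visomitin libraries, against 14.07, 18.72 and 14.01 TPM in control libraries, while Mars1 differed by 0.03 on the log2 scale (limma adjusted p = 0.877).

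**Figure D5:**
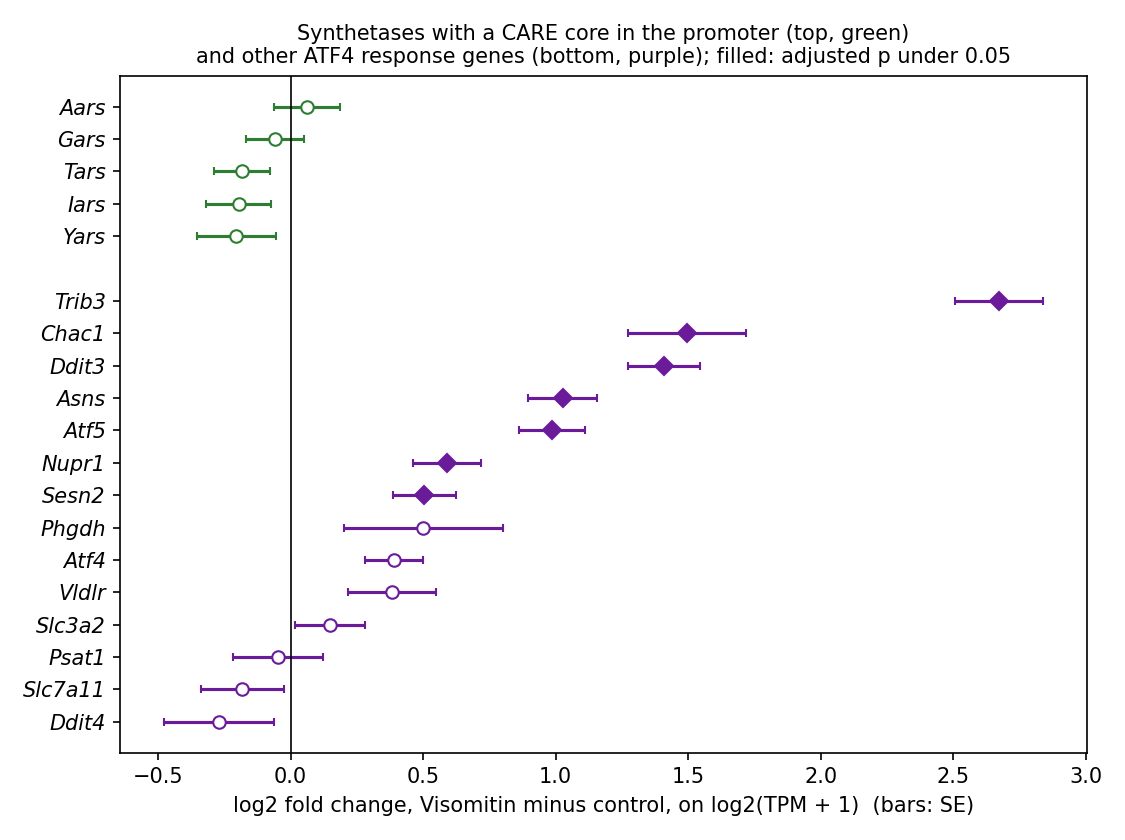
Log2 differences (Visomitin minus control, with standard errors) of the 5 synthetase genes with a CARE core in the promoter (green, top) and of the 14 ATF4 response genes (purple, bottom), 3 libraries a group, with filled diamonds for genes that passed. Trib3 (2.67) and Asns (1.03) lie far to the right, and the 5 synthetase genes lie between -0.20 and 0.06.

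Other steps around tRNA charging were followed in lists of related genes, also chosen with earlier results of these data known. The 13 genes of tRNA export, maturation and proofreading had a median of -0.23. Of these, 0 rose, 12 did not pass and 1 fell (5.03% of all tested genes fell). The 1 was Nsun2, which methylates cytosines in tRNA, with 54.22, 64.45 and 71.67 TPM in Visomitin libraries and 83.83, 85.51 and 97.1 TPM in control libraries (log2 difference -0.48 ± 0.12, SE, limma adjusted p = 0.046). Nsun2 passed in 8 of 15 other settings and did not with no filter, with no trend, or without Visomitin 1, Visomitin 2 or any 1 control library. Xpot, the tRNA exporter, had a log2 difference of -0.23 that did not pass (limma adjusted p = 0.282). None of the 4 genes of mitochondrial tRNA amidation and formylation (Qrsl1, Gatb, Gatc and Mtfmt) passed, and their median was 0.05. None of 7 cytosolic elongation and termination factors passed, with a median of -0.04.

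The mitochondrial translation factors, which use the tRNAs that the mitochondrial set charges, gave 3 lower genes of 10, 0 higher and 7 not passing. Over all tested genes 5.03% passed as lower. The median of the 10 was -0.18, against -0.03 for all tested genes. These 10 were also chosen with earlier results known, so such comparisons are no test of the list. Mrrf, which recycles mitochondrial ribosomes, fell to 6.78, 8.43 and 7.71 TPM in Visomitin libraries, against 12.55, 13.72 and 14.09 TPM in control libraries (log2 difference -0.75 ± 0.12, SE, limma adjusted p = 0.010). Gfm1, the translocation factor of mitochondrial elongation, fell to 32.82, 37.51 and 50.49 TPM in Visomitin libraries, against 63.26, 60.37 and 68.2 TPM in control libraries (limma adjusted p = 0.035). Tufm, which delivers charged tRNA to the mitochondrial ribosome, had 87.33, 97.12 and 101.73 TPM with Visomitin and 126.45, 121.22 and 136.65 TPM in controls (log2 difference -0.42 ± 0.09, SE, limma adjusted p = 0.031). For all 3 factors the groups did not overlap. Mrrf passed in all 15 other settings, Tufm in 9 and Gfm1 in 8, and 1 to 3 of the 10 genes passed when each library was left out (2 without Visomitin 1, and 1 without Visomitin 2 or any 1 control library). With no filter, or with no variance trend, 1 of the 10 passed. Outside the chosen symbols, Tarsl2, which encodes a second cytosolic threonyl enzyme, differed by -0.34 without passing (limma adjusted p = 0.146).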

How the data were processed

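RNA was sequenced in 6 libraries, 3 per group. Per the labels' protocols, libraries were made from total RNA with a stranded mRNA kit. Per the submitters' processing notes, fastp, HISAT2 and StringTie were used; the sources used here do not give their versions, the build or the annotation. TPM per Ensembl gene were deposited, scaled by the authors within each library; counts and depth cannot be had from them, so the number of libraries limits precision.

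Symbols were assigned by identifier from a gene name reference (51884 of 57180 matched); positions and exon overlaps came from GENCODE M21 (GRCm38) by identifier. The 11753 genes that reached 1 TPM in 3 or more libraries were fitted on log2(TPM + 1) with limma 3.58.1 (trend; R 4.3.3), group being the single factor, two-sided, Benjamini-Hochberg adjusted, at a threshold of 0.05. Folds are on this scale and understate changes of low genes. "Passed", "rose" and "fell" refer to this test. Pair ratios of TPM were tested by exact permutation (SciPy 1.17.1). The code was tested on simulated data. The members and lists were chosen with earlier results of these data known. Members that passed were to be given in full, with, per set, the 3 largest differences and the 2 highest levels among the rest; other members and genes were named after their values were seen. Promoters are from RefSeq. A few listed genes are not reported here. Alternatives changed the pseudocount, filter, scaling, trend, block and libraries.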

Additional observations from a re-analysis of the deposited data

How the results depend on the processing

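The count of genes passing, 835 of all tested, was 381 with no filter on low values and 309 to 981 when each library was left out. Of the cytosolic set 1 gene passed (Aimp2, lower). With no filter or no trend 0 passed. With a mean of at least 5 TPM or without mitochondrially encoded genes 2 passed (Aimp2 and Rars). With median-ratio scaling 4 passed (1 higher and 3 lower) and with quantile normalization 5 (2 higher and 3 lower), Aimp2 not among them. When each library was left out 0 to 1 passed, the 1 being Cars, higher, without Visomitin 1. Of the mitochondrial set 0 passed; 1 passed with either scaling and 0 to 2 when each library was left out, with 2 without Visomitin 3. Counted without overlap, 8 to 11 pair ratios separated the groups when each library was left out. Leaving out a library cannot make separate ranges overlap, so this count could not fall below 8 and says nothing of stability. This alternative was chosen after seeing the data, as were the counts of the other lists by setting. The cause was not tested. Among all passing genes, 481 were higher and 689 lower with median-ratio scaling (58.9% lower) and 559 higher and 651 lower with quantile normalization (53.8% lower), beside 244 higher and 591 lower in TPM (70.8% lower). The set medians kept their sign in all settings, at -0.22 to -0.06 (cytosolic) and -0.29 to -0.18 (mitochondrial) when each library was left out. Small differences changed sign. Under median-ratio scaling Vars2 was at 0.0041 and Wars2 at 0.012, and under quantile normalization Nars2 was at 0.028, Vars2 at 0.019 and Wars2 at 0.059. When each library was left out, ranges spanned 0 for Aars (-0.041 to 0.17), Gars (-0.12 to 0.046), Kars (-0.11 to 0.0089), Mars1 (-0.063 to 0.093), Vars (-0.070 to 0.18), Lars2 (-0.23 to 0.023), Nars2 (-0.23 to 0.17), Vars2 (-0.28 to 0.16) and Wars2 (-0.20 to 0.22). With the number in the library name as a replicate block, 1107 genes passed in all, with 2 cytosolic members (Aimp2 and Rars) and 1 mitochondrial (Yars2). Residual correlations within numbers were 0.046, 0.020 and 0.17, and 3 of 6 libraries correlated best with their own number. With so few libraries these values cannot show whether libraries of the same number share a mouse or a culture. TPM give no depth, which limits what low genes such as Mars2 can show.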
